A study of Danio rerio with 11 samples.

Results

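The genes crp and crp3 encode pentraxins, and they were selected on their levels in livers of ahcy mutant larvae, which lay far below those of controls. Every probe set whose annotated gene symbol was crp or crp3 was taken. The array carried 1 probe set for each gene, Dr.25224.1.S1_at for crp (gene ID 751795) and Dr.20270.1.S1_at for crp3 (gene ID 100141350), so 2 of the 7792 genes named on the array are described. Their mutant levels, which chose both genes, are given as a description and without a test. The difference between azacytidine and control arrays was tested, but its earlier results were known when the genes were chosen, so the test is not independent of that choice.

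Livers were taken from zebrafish larvae at 4 days post fertilisation (dpf) and profiled on single-colour Affymetrix zebrafish arrays, 1 array per sample. Control livers (n = 4, samples 1, 2, 4 and 8) came from ahcy +/+ larvae given vehicle into the yolk at 2 dpf. Azacytidine livers (n = 4, samples 1, 2, 5 and 6) came from ahcy +/+ larvae given 1 mM azacytidine by the same route and at the same age. Mutant livers (n = 3, samples 3, 4 and 6) came from ahcy -/- larvae given vehicle, so all 3 groups shared the injection. Azacytidine is a cytidine analogue that traps DNA methyltransferases, and ahcy encodes adenosylhomocysteinase, which hydrolyses S-adenosylhomocysteine, an inhibitor of methyl transfer. The germline mutation is present in every cell of the larva and the drug was not targeted to the liver, so neither group alters hepatocytes alone.

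Pentraxins are secreted proteins whose subunits form a ring, which binds phosphocholine and other ligands on microbes and dying cells in the presence of calcium. Bound C-reactive protein, the product of CRP in mammals, recruits complement component C1q and engages Fc receptors on phagocytes. In mammals the short pentraxins C-reactive protein and serum amyloid P are made mainly by hepatocytes, and in human liver cells CRP is a classic acute phase gene that responds to interleukin-6 and interleukin-1 through STAT3, C/EBP factors and NF-kB. Zebrafish carry several crp genes.

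The identity of the crp probe set is less certain than that of crp3. Gene ID 751795 does not stand in the RefSeq table of assembly GRCz12tu, in which 3 other genes, apcs, crp4 and crp7, list crp as a synonym. Which gene or genes the probe set measures, among these or others, was not resolved. crp3 stands in that table between crp2 and crp4, on a chromosome with 7 numbered crp genes, crp1 to crp7. Related genes of such a run can share probe sequence, and how far either probe set responds to transcripts of the others was not tested. Of the 21 symbols on the pentraxin list, 3 were measured, crp, crp3 and nptx1l, a gene of the neuronal pentraxin branch.

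The mean of 26 hepatocyte markers lay between 9.06 and 11.59 on every array against array medians of 5.89 to 6.17 (log2). Not every marker was high. The marker hpxa was 3.92 to 4.89 in controls, and ahsg1 was 4.69, 5.23 and 4.63 in mutants 3, 4 and 6. The check of the targeted gene gave ahcy levels of 12.40 ± 0.08 in controls (SD, n = 4), 12.34 ± 0.22 after azacytidine (SD, n = 4) and 12.11, 11.47 and 11.50 in mutants 3, 4 and 6. The mutant-minus-control difference in ahcy was -0.70 ± 0.16 (SE, limma adjusted p = 0.017), a call lost without mutant 4 (adjusted p = 0.073) or mutant 6 (adjusted p = 0.076). Signal of other tissues differed between arrays. Control 2 stood out with a mean of 9.98 over 15 exocrine pancreas markers, which no other array approached (at most 7.46), and control 4 had the highest means of 22 neural markers (8.45) and 7 eye and lens markers (7.54). In mutants the mean of 25 skeletal muscle markers was 10.08 to 10.7, against 8.14 to 9.25 in controls and 7.51 to 8.28 after azacytidine, and 14 of the 25 rose against control in limma. The mean of 19 epidermis markers was 9.21 to 9.86 in mutants, against 7.96 to 8.32 in controls, with 12 of 19 higher and 1 lower by the same test. Over all probe sets 6.23% were called higher in mutants. After azacytidine the epidermis mean was 6.77 to 7.96, at or below every control, and the neural mean was 4.97 to 5.42, against 5.41 to 8.45 in controls. Against control, 2 of 25 muscle markers were called lower after azacytidine. At an unadjusted p under 0.05, 18 of 25 muscle, 18 of 22 neural, 6 of 19 epidermis and 6 of 15 exocrine pancreas markers were lower. Over all 7792 named genes, 13 were called lower and 724 were lower at an unadjusted p under 0.05.

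In control livers both genes were near the top of the scale. The crp level was 11.74, 11.96, 12.34 and 12.51 in controls 1, 2, 4 and 8, a mean of 12.14 ± 0.35 (log2, SD, n = 4). The crp3 level was 12.46, 12.13, 11.98 and 11.89 in the same arrays, a mean of 12.12 ± 0.25 (SD, n = 4). Both therefore stood at or above percentile 98.0 of all probe sets on every control array, with 99.0 the highest percentile of crp and 98.9 that of crp3. The order of the controls was reversed between the genes, since crp was lowest in control 1 and highest in control 8 and crp3 the opposite.

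After azacytidine both genes kept high levels. The crp level was 12.75, 13.08, 12.72 and 12.48 in azacytidine arrays 1, 2, 5 and 6, a mean of 12.76 ± 0.25 (SD, n = 4). The lowest of these, 12.48, was below the highest control, 12.51, so the groups overlapped by a single pair of arrays. The crp3 level was 12.55, 12.68, 12.76 and 12.52, a mean of 12.63 ± 0.11 (SD, n = 4), and all 4 values exceeded the highest control, 12.46. The highest level on the azacytidine arrays was 14.12 to 14.21, from 1.13 to 1.70 above the crp level of the same array.

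**Figure D1:**
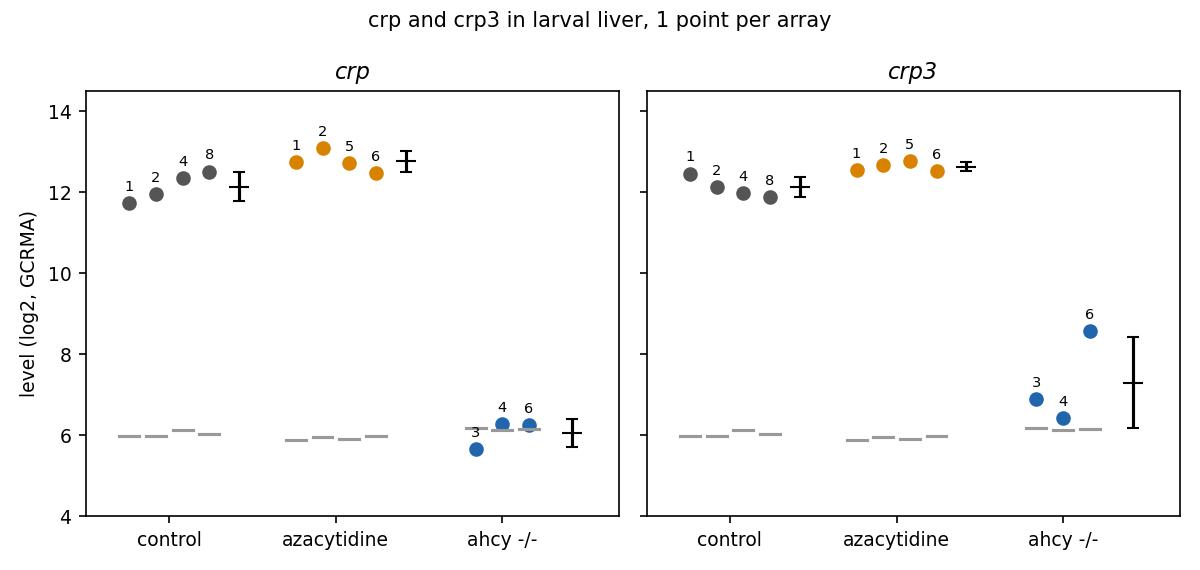
Level of crp (left) and crp3 (right) on each array, in log2 units of the deposited GCRMA values. Points are arrays numbered by sample, the bar beside each group is its mean ± SD (n = 4, 4 and 3), and grey dashes mark the median of each array. All control and azacytidine points lie between 11.74 and 13.08, while the mutant points lie between 5.65 and 8.57.

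The question of the azacytidine comparison was whether a DNA methyltransferase inhibitor moved these genes in a normal genotype. The azacytidine-minus-control difference in crp was 0.62 ± 0.22 (log2, SE), a 1.54-fold higher level with a 95% confidence interval of 0.15 to 1.09. It did not pass the threshold of an adjusted p under 0.05 in limma (unadjusted p = 0.014, adjusted p = 0.20), and 3 of the 4 azacytidine arrays exceeded every control. The difference in crp3 was 0.51 ± 0.35 (SE), or 1.43-fold, with an interval of -0.26 to 1.29 (unadjusted p = 0.17, adjusted p = 0.55). Of all 12784 probe sets, 0.399% were called higher and 0.18% lower after azacytidine, and 3.71% had azacytidine arrays that all exceeded every control, as crp3 did. By size, crp was 696th and crp3 996th among rises. An unadjusted p under 0.05 with a higher level was found for 5.23% of probe sets. The intervals, which are not adjusted for the number of probe sets, run from 1.11-fold to 2.13-fold for crp and from 0.835-fold to 2.44-fold for crp3. The signal of muscle, neural and epidermis markers was lower on the same azacytidine arrays, as given above, and its part in these differences was not tested. A p above the threshold does not show that azacytidine left the genes unchanged.

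All 11 arrays gave 1 estimate of variance, which for crp3 includes the wide spread of its mutant arrays. With only control and azacytidine arrays in the fit, the SE of crp3 was 0.12 and the adjusted p was 0.11, and that of crp was 0.15. Without mutant 6, the adjusted p of crp3 was 0.16. Neither gene was called under any alternative that was run. Leaving out control 2 and control 4 together, the arrays with the most pancreas and the most neural signal, gave differences of 0.63 for crp and 0.45 for crp3.

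The mutant comparison asked how the loss of ahcy changed the liver, and it uses the same control arrays as the azacytidine comparison. In ahcy mutants the signal of crp was near the middle of the array. Its level was 5.65, 6.27 and 6.24 in mutants 3, 4 and 6, a mean of 6.05 ± 0.35 (SD, n = 3), and these arrays had medians of 6.17, 6.13 and 6.15. Among all probe sets of its array, crp stood at percentile 36.7, 52.8 and 52.0. The difference from control was -6.08 ± 0.23 (log2, SE), a 67.8-fold lower level, and that from azacytidine was -6.70 ± 0.23, or 104-fold lower. Among the 12784 probe sets this was the lowest difference in either comparison. Both comparisons use the same 3 mutant arrays and chose the gene, so no p is given.

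The level of crp3 in mutants was less even. It was 6.90, 6.43 and 8.57 in mutants 3, 4 and 6, a mean of 7.30 ± 1.12 (SD, n = 3), with percentiles of 64.9, 56.1 and 83.9 on those arrays. Mutant 6 was well above the others but still below every control and azacytidine array. The difference from control was -4.82 ± 0.38 (SE), 28.1-fold lower, and that from azacytidine was -5.33 ± 0.38, 40.2-fold lower. Without mutant 6 these differences were -5.45 and -5.96. By size, crp3 stood 9th among decreases from control and 12th among decreases from azacytidine. Of all probe sets, 5.87% were called lower in mutants than in controls and 10.6% had mutant arrays that all lay below every control, and nothing is read from these shares because the contrast chose the genes. Against azacytidine, 11.1% were called lower and 18.2% higher in mutants, and 13.8% had mutant arrays all below every azacytidine array.

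The order of the levels was therefore azacytidine, control and mutant for both genes. The first pair of groups did not differ beyond the test, and the mutant arrays lay 3.32 or more below every other array for crp3 and 5.47 or more for crp. At levels close to the array median, GCRMA values carry the uncertainty of the background correction, so the folds in mutants depend on how that background was set.

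The crp-minus-crp3 difference was -0.72, -0.17, 0.36 and 0.62 in controls 1, 2, 4 and 8, which averaged 0.02 ± 0.59 (SD, n = 4). After azacytidine it was 0.20, 0.40, -0.04 and -0.04, or 0.13 ± 0.21 (SD, n = 4). In mutants 3, 4 and 6 it was -1.25, -0.16 and -2.33, or -1.25 ± 1.09 (SD, n = 3), and -0.70 ± 0.77 without mutant 6. The probe sets differ, so these differences do not rank the genes by transcript number. The gap in mutant 4 was within the spread of the controls.

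**Figure D2:**
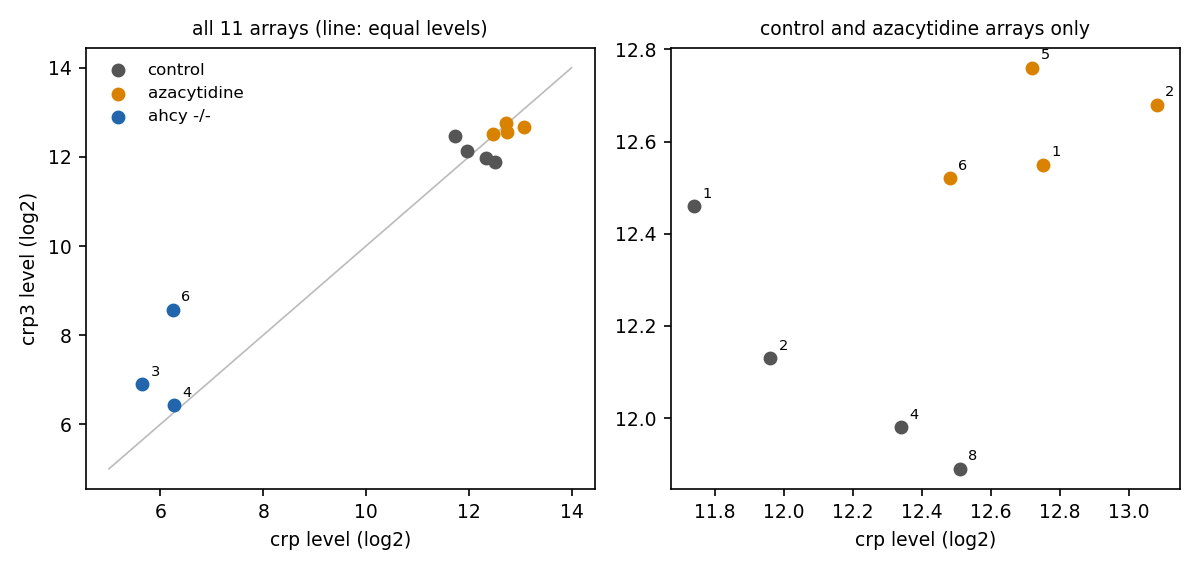
Level of crp3 against crp on all 11 arrays (left, with the line of equal levels) and on the control and azacytidine arrays alone (right, on a narrower scale), both axes in log2 units. Numbers are sample numbers. The 4 controls run from 11.74 to 12.51 in crp as crp3 runs from 12.46 to 11.89, and mutant 6 lies farthest above the line of equal levels.

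In bulk tissue, fewer hepatocytes and less transcript per hepatocyte cannot be told apart, so crp and crp3 were also set against the hepatocyte markers. The mean of the 26 markers was 10.95 ± 0.14 in controls, 11.36 ± 0.19 after azacytidine (both SD, n = 4) and 9.84, 9.72 and 9.06 in mutants 3, 4 and 6. It was lower in mutants by a smaller margin than either pentraxin. Of the 26 markers, 16 fell in mutants by limma's test and 10 were not called, against 559 of 7792 named genes called lower. The median difference of the markers was -0.85, against 0.04 over all named genes. None of the 26 had a decrease as large as that of crp, but both pentraxins were chosen for their decrease in mutants. A single marker, tdo2a, which encodes a liver tryptophan dioxygenase, had a larger decrease than crp3, at -5.12. tdo2a is named here because of that value, and its mutant mean of 5.40 was below the 6.05 of crp.

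Relative to this hepatocyte mean, crp was 1.19 ± 0.36 higher in controls (log2 difference of levels, SD, n = 4) and 1.39 ± 0.24 higher after azacytidine, but in mutants 3, 4 and 6 it stood at -4.19, -3.45 and -2.82. crp3 was 1.16 ± 0.29 above the mean in controls and 1.26 ± 0.24 after azacytidine, and stood at -2.94, -3.29 and -0.49 in the mutants. The azacytidine-minus-control change in this relative level was 0.21 for crp (exact permutation test, 2-sided, p = 0.34) and 0.10 for crp3 (p = 0.63, same exact test), where the 70 splits of 4 and 4 arrays allow no p below 0.029. Against the list's median in place of its mean, the changes were 0.42 for crp (exact p = 0.29) and 0.31 for crp3 (exact p = 0.029). Against the 11 hepatocyte markers that stand in no acute phase list, they were 0.42 (exact p = 0.14) and 0.31 (exact p = 0.20). The value of crp3 relative to the mean of all 26 was -0.03 without control 8 and 0 without azacytidine 5. The marker mean was 11.19 to 11.59 after azacytidine, above every control (10.78 to 11.11). The median marker difference was 0.21 and 1 of the 26 was called, ahsg1, which had the highest difference at 1.87. At an unadjusted p under 0.05 in limma, 8 of the 26 were higher and 0 lower, against 442 higher and 724 lower of 7792 named genes. Mutant minus control, the relative level differed by -4.67 for crp and -3.40 for crp3.

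In mutant 6, crp3 ran against most liver genes. That array held the lowest mutant level of 23 of the 26 hepatocyte markers, of 15 of 20 positive acute phase genes and of 11 of 18 complement genes, while its crp3 level was the highest of the mutants. Its crp level of 6.24 differed little from the 6.27 of mutant 4. Its skeletal muscle mean, 10.7, and epidermis mean, 9.86, were the highest of the 11 arrays, and their part in any of these values was not tested. The gene lists counted above share genes, so their counts are not independent.

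**Figure D3:**
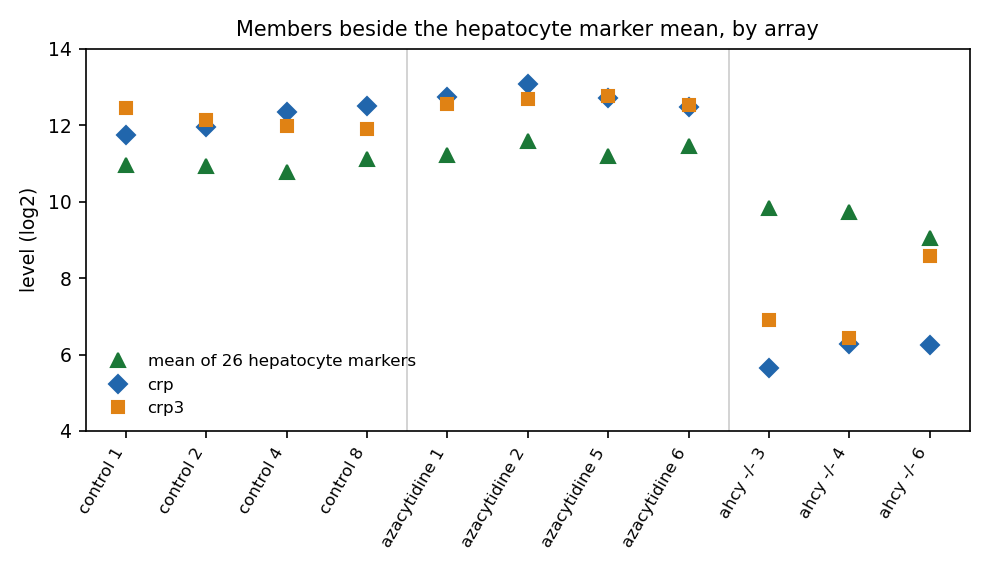
Levels of crp, crp3 and the mean of 26 hepatocyte markers on each array, in log2 units. Control and azacytidine arrays show both pentraxins above the marker mean of 10.78 to 11.59, whereas in mutants they lie below a marker mean of 9.06 to 9.84, with crp3 of mutant 6 closest to it at -0.49.

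Signalling genes that control CRP in mammals come first among the other genes of the pathway. Of 9 measured interleukin-6 and STAT3 signalling genes, 1 was called higher in mutants, against 505 of 7792 named genes, and 8 were not called. Their median difference was 0.08, and the 9 include no cytokine or receptor gene. The called gene was socs3a, a feedback inhibitor that STAT3 induces, with levels of 5.25, 6.38, 6.72 and 6.22 in controls and 7.94, 9.85 and 8.64 in mutants. Its difference was 2.67 ± 0.66 (SE, limma adjusted p = 0.021), and the call was lost without mutant 4, mutant 6 or control 1 (adjusted p = 0.092, 0.063 and 0.059). stat3 itself had a difference of 0.62 ± 0.35 (adjusted p = 0.30). After azacytidine none of the 9 genes was called in limma, although 1 had an unadjusted p under 0.05, and that gene, socs3a, differed by 1.86 ± 0.61 (adjusted p = 0.17).

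Of 8 measured genes of interleukin-1, TNF and NF-kB signalling, 2 were called higher after azacytidine and 6 were not called (median difference 0.82, against -0.03 over all named genes). The 8 include no cytokine or receptor gene. Among all 7792 named genes, 34 were called higher. nfkb2, which encodes the p100 precursor of an NF-kB subunit, was 5 to 5.76 in controls and 7.17, 8.38, 8.69 and 8.74 after azacytidine, a rise of 2.98 ± 0.36 (SE, limma adjusted p = 0.0025). The other was nfkbiab, an inhibitor of NF-kB, at 1.93 ± 0.35 (adjusted p = 0.031), a call lost without azacytidine 2, 5 or 6 or control 1 or 8 (adjusted p 0.063 to 0.11). In mutants 505 of the 7792 named genes were called higher. Those of this list were nfkbiaa (1.29 ± 0.30, adjusted p = 0.017) and nfkbiab (1.27 ± 0.37, adjusted p = 0.046). Neither was called without mutant 4 or without mutant 6, and nfkbiab kept its call only when control 4 was the array left out (adjusted p 0.051 to 0.16 otherwise).

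Of 14 measured liver transcription factors and C/EBP genes, none was called after azacytidine in limma (median 0.16, with 1 at an unadjusted p under 0.05). In mutants 5 of the 14 were called lower (median -0.42), against 559 of 7792 named genes. foxa1, a forkhead pioneer factor of the liver, was 8.92 to 9.82 in controls and 7.97, 7.52 and 6.98 in mutants, a difference of -1.82 ± 0.29 (SE, limma adjusted p = 0.0026). nr1h3, the liver X receptor alpha gene, differed by -1.70 ± 0.26 (adjusted p = 0.0020). The others were nr5a2, hnf4b and hnf4a, and the number of calls was 2 without mutant 4, mutant 6 or control 1 and 3 without control 2. cebpb, whose mammalian product binds the CRP promoter, differed by 0.05 ± 0.20 in mutants (adjusted p = 0.91) and by 0.11 ± 0.19 after azacytidine (adjusted p = 0.85). The sign of the mutant value turned when arrays were centred on their medians, to -0.06.

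The list of positive acute phase genes is named for proteins that mammalian liver secretes in larger amounts in inflammation. Not every gene on it encodes such a protein. Among its 20 measured genes, most differences after azacytidine were small and positive. Their median difference was 0.50, with 18 of 20 estimates above 0, and 11 of the 20 were below both crp and crp3 while 9 were above both. All azacytidine arrays exceeded every control for 10 of the 20, as for crp3, against 3.71% of all probe sets. A single gene was called, hpxb, a hemopexin that binds heme, at 2.04 ± 0.37 (SE, limma adjusted p = 0.031). That call was lost without azacytidine 2, 5 or 6 or control 4 or 8 (adjusted p 0.054 to 0.11). saa, which encodes serum amyloid A, was 4.18 to 4.55 in controls and 5.31, 5.44, 4.82 and 5.38 after azacytidine. Its controls were close to the 10th percentile of their arrays (4.22 to 4.45), and all 8 values lay below the median of their array. The arrays did not overlap, and the difference of 0.94 ± 0.20 missed the threshold (adjusted p = 0.057), which it passed without control 2, azacytidine 5 or mutant 3 (adjusted p 0.046 to 0.047) and with array weights, centring or cyclic loess (adjusted p = 0.016, 0.037 and 0.036). The number of acute phase genes called higher was 3 with array weights and 2 with centring or cyclic loess.

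In mutants 9 of these 20 acute phase genes fell, against 559 of 7792 named genes, and 11 were not called. The median difference of the 20 was -0.82. None of the 20 had a decrease as large as that of crp or crp3, an order that their choice on this contrast favoured. The lowest was itih3a.1, an inter-alpha-trypsin inhibitor heavy chain, at 9.90 to 10.93 in controls and 7.99, 7.99 and 5.57 in mutants, a difference of -3.32 ± 0.49 (SE, limma adjusted p = 0.0015). The complement component gene c3a.1 fell by 2.58 (SE 0.41, adjusted p = 0.0024) and hp, haptoglobin, fell by 1.70 (SE 0.21, adjusted p = 0.00038). The fibrinogen chains fga, fgb and fgg, also made by hepatocytes, differed by -0.60 ± 0.26, -0.35 ± 0.16 and -0.31 ± 0.16 and were not called (adjusted p = 0.16, 0.19 and 0.26), except that fgb was called without mutant 4 (-0.57, adjusted p = 0.028). saa, close to the 10th percentile of its arrays in controls, differed by 0.06 ± 0.21 in mutants (adjusted p = 0.90), with the sign turned by array weights (-0.05), centring (-0.05) and cyclic loess (-0.10). The genes stat3, cebpb, saa and the fibrinogen chains were named for their known roles, after their values were seen.

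**Figure D4:**
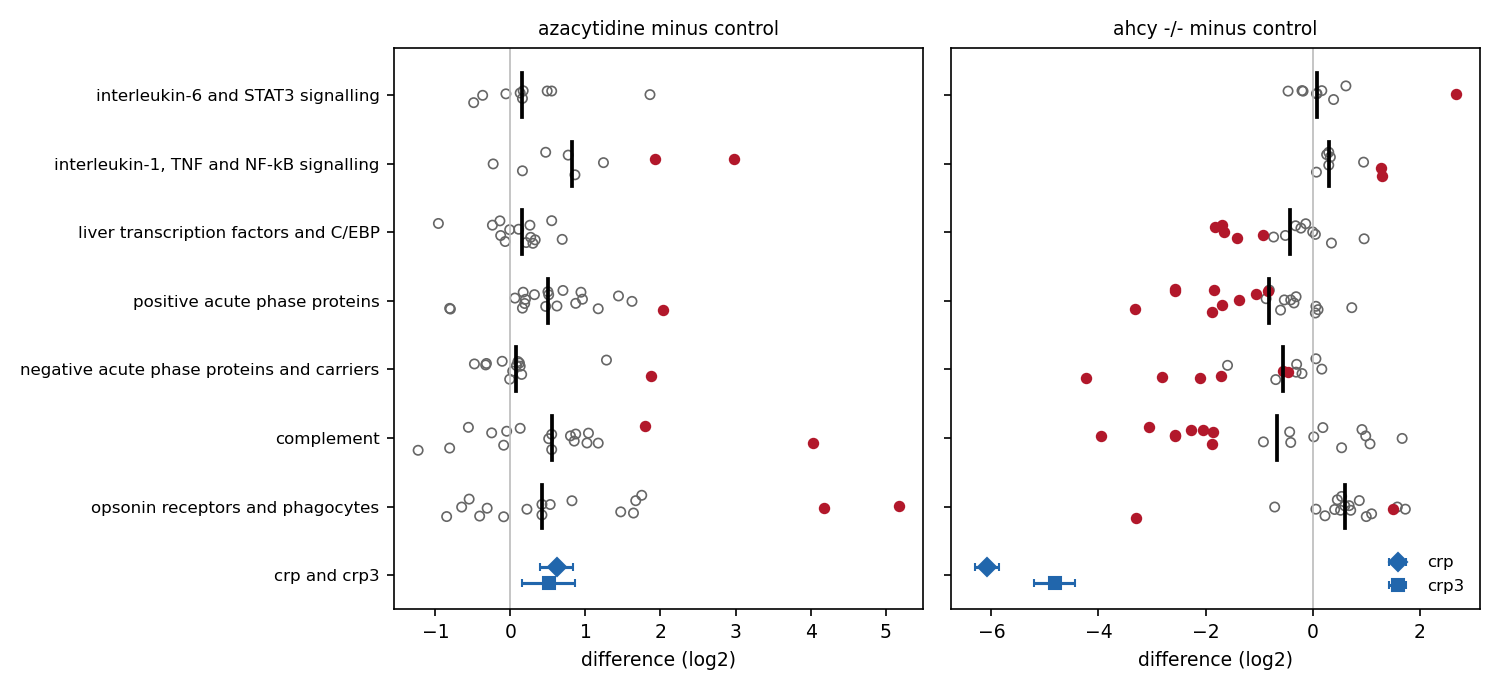
Differences (log2) of the measured genes of 7 lists after azacytidine (left) and in ahcy -/- livers (right), each against control. Circles are genes, filled where the adjusted p was under 0.05, black bars are list medians, and the blue symbols are crp and crp3 with their SE. The azacytidine values of crp (0.62) and crp3 (0.51) lie near the acute phase median of 0.50. Their mutant values (-6.08 and -4.82), for which both were chosen, lie left of every listed gene.

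The list of negative acute phase proteins and carriers is named for proteins whose secretion falls in mammalian inflammation, though not all of its genes encode such proteins. Of its 13 measured genes, 6 fell in mutants, against 559 of 7792 named genes, and 7 were not called (median -0.55). ahsg1, a fetuin, was 8.61, 8.62, 9.22 and 9.92 in controls and 4.69, 5.23 and 4.63 in mutants, a difference of -4.24 ± 0.33 (SE, limma adjusted p = 2.5e-05). Its decrease was smaller than that of either pentraxin, both chosen for their decrease, but its mutant levels were below theirs. ahsg1 was called higher after azacytidine, at 1.87 ± 0.31 (adjusted p = 0.019), but not without azacytidine 2 or 5 or control 4 (adjusted p 0.054 to 0.064). fetub, the other fetuin, fell by 2.81 (SE 0.40, adjusted p = 0.0012), and ambp, the alpha-1-microglobulin precursor, by 2.1 (SE 0.39, adjusted p = 0.0052).

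Complement is a system that bound C-reactive protein recruits, and 8 of 18 measured complement genes fell in mutants while 10 were not called (median -0.67). Among all 7792 named genes, 559 were called lower. Of the 18 complement estimates, 7 were above 0, the highest at 1.67, and 11 below. At an unadjusted p under 0.05 in limma, 2 were higher and 9 lower. A count of 1 complement gene called higher was found without mutant 3, with array weights, with a random replicate block or without dim probe sets. The complement genes c3a.1, c9, mbl2 and serping1 are also on the positive acute phase list. masp2, the protease that starts the lectin pathway, was 9.14 to 10.12 in controls and 6.52, 5.98 and 4.87 in mutants, a difference of -3.96 ± 0.36 (SE, limma adjusted p = 6.4e-05). c4b, a component of the classical and lectin pathways, fell by 3.06 (SE 0.37, adjusted p = 0.00038) and c8g, a chain of the membrane attack complex, by 2.04 (SE 0.34, adjusted p = 0.0032). After azacytidine c4b and c7b were called higher and 16 complement genes were not called, against 34 of 7792 named genes called higher. By limma's unadjusted p under 0.05, 7 of the 18 were higher and 1 lower. c4, named here for its direction, was 6.76 to 7.97 in controls and 6.04, 7.24, 5.91 and 5.73 after azacytidine. c7b, another part of the attack complex, was 3.35 to 5.60 in controls and 9, 6.57, 9.34 and 8.95 after azacytidine, a rise of 4.03 ± 0.59 (adjusted p = 0.0098) that missed the threshold without control 2 and control 4 together (adjusted p = 0.073). c4b, at 1.8 ± 0.34 (adjusted p = 0.041), lost its call in the fits without azacytidine 1, 2, 5 or 6 or control 1, 4 or 8 (adjusted p 0.053 to 0.11).

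Phagocytes carry the Fc receptors that mammalian C-reactive protein engages. Of 30 symbols on the list of opsonin receptors and phagocytes, 17 were measured, and no Fc receptor gene was among them. After azacytidine 2 of the 17 rose, against 34 of 7792 named genes. The 2 were cd74a and cd74b, the invariant chain genes of antigen presentation. The list was chosen with earlier results of these data known, so its count is not independent of them. cd74a was 4.22 to 4.6 in controls and 8.20, 9.37, 10.18 and 10.87 after azacytidine, a rise of 5.18 ± 0.46 (SE, limma adjusted p = 0.0011), and cd74b rose by 4.18 ± 0.49 (adjusted p = 0.0025). In mutants 3, 4 and 6 cd74a was 4.56, 5.49 and 4.99, beside the control range. The mean of this list was 5.02 to 5.71 in controls, 5.89 to 6.65 after azacytidine and 5.39 to 6.32 in mutants, and its part in the azacytidine values of crp and crp3 was not tested. In mutants 15 of the 17 estimates were above 0 (median 0.60). Over all 7792 named genes 505 were called higher and 559 lower, while 15 of the 17 were not called in limma. The 1 gene called lower was mpx, the neutrophil myeloperoxidase gene, which fell by 3.29 (SE 0.55, adjusted p = 0.0031). coro1a, an actin regulator of leukocytes, was called higher (1.49 ± 0.35, adjusted p = 0.016), but not without mutant 6 (1.06, adjusted p = 0.067). The number of genes of this list called higher in mutants was 4 without mutant 3 and 2 without azacytidine 1.

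Over the 7 lists together, 8 of 95 genes were called higher after azacytidine and 87 were not called, while in mutants 4 were called higher and 26 lower. Over all 7792 named genes, 34 were called higher after azacytidine, and 505 were called higher and 559 lower in mutants. All 7 lists were chosen with earlier results of these data known, so their counts are not independent of those results. The 8 became 4 without azacytidine 2 and 5 without azacytidine 5, azacytidine 6 or control 4. The 4 became 8 without mutant 3, 1 without mutant 4, 0 without mutant 6 and 2 without control 1. At an unadjusted p under 0.05 in limma, 10 of the 20 positive acute phase genes were higher after azacytidine and 0 lower. Of the 7792 named genes, 442 were higher and 724 lower by that measure. The remaining pentraxin on the array was nptx1l. Its level was 4.13, 4.13, 4.82 and 4.21 in controls and 3.67 to 3.95 after azacytidine, below every control. In mutants 3, 4 and 6 it was 4.42, 5.03 and 5.67. All these values lay below the median of their array. It differed by -0.54 ± 0.26 after azacytidine (SE, limma adjusted p = 0.35) and by 0.72 ± 0.28 in mutants (adjusted p = 0.12, or 0.024 without mutant 3).

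The 8 genes whose levels ran most like crp were taken by Pearson's correlation. Pearson's r over the 11 arrays was 0.992 for dhrs9, a short-chain dehydrogenase, 0.987 for dhrs11b.2, another of that family, and 0.986 for phyh, the peroxisomal phytanoyl-CoA hydroxylase. It was 0.986 for a2m2f, an alpha-2-macroglobulin gene, 0.983 for me1, the cytosolic malic enzyme, 0.981 for fdx1, a ferredoxin, and 0.980 for elovl8b, a fatty acid elongase, and tmem208. Of 7274 genes compared, 53 had r above 0.95 with crp. crp3 stood 18th on that list at 0.972. These values rest on the gap between the 3 mutant arrays and the other 8, which all these genes share, and none is tested.

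The gene most like crp3 was crp itself, at 0.972, followed by jagn1b (0.970), krtcap2 (0.968), dhrs11b.2 (0.967), elovl8b (0.959), rida (0.957), tmem208 (0.956), hgd (0.954) and surf1 (0.953). hgd encodes homogentisate dioxygenase of tyrosine breakdown. For crp3, 13 genes had r above 0.95. Within groups, the correlation of the deviations of crp and crp3 from their group means was 0.00. For the 8 genes most like crp it ran from -0.23 for dhrs11b.2 to 0.58 for dhrs9.

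Genes that ran alike had unlike sizes of decrease. Mutant minus control, dhrs9 was -2.65 ± 0.20 (SE), phyh -2.98 ± 0.23 and fdx1 -1.51 ± 0.16, while a2m2f was -4.91 ± 0.35, me1 -4.55 ± 0.37, dhrs11b.2 -4.59 ± 0.24 and rida -4.26 ± 0.16. Each of these decreases is smaller than that of crp, while that of a2m2f is slightly larger than the -4.82 of crp3. The genes were picked for a pattern that holds the mutant contrast, so they are not tested. Size of decrease is not the level reached. From control means of 9.70, a2m2f and me1 reached mutant means of 4.79 and 5.15, below crp (12.14 to 6.05). The other genes named in this comparison stayed above the mutant mean of crp. a2m2f was 8.90 to 10.36 in controls and 4.61, 5.21 and 4.55 in mutants. After azacytidine dhrs9 differed by 0.30 ± 0.18 (limma adjusted p = 0.47) and me1 by 0.61 ± 0.35 (adjusted p = 0.44), so neither was called, as with crp. The other genes most like crp or crp3 ran from -0.25 for rida to 0.51 for a2m2f, with phyh at 0.04 and elovl8b at -0.03. None of them was called.

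**Figure D5:**
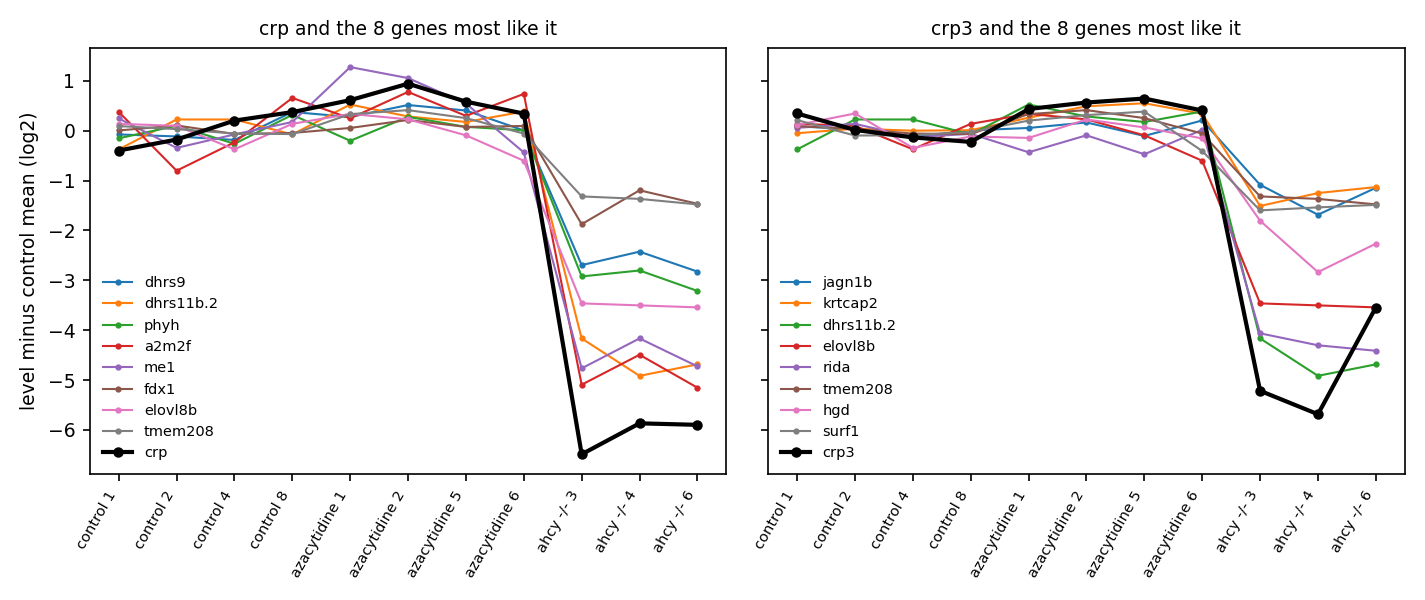
Level minus the control mean (log2) on each array for crp and the 8 genes most like it (left) and for crp3 and the 8 genes most like it after crp (right). Lines join the arrays of a gene in a fixed order and stand for no series. All lines lie near 0 on control and azacytidine arrays and drop in mutants by unlike amounts, with crp lowest of its panel. Of the mutant points of crp3, that of mutant 6 is the highest.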

How the data were processed

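RNA of 11 liver samples was amplified in 2 rounds before labelling, per the labels' protocols, which name both biotin and Cy3. The deposited values are log2 levels, 1 per probe set and array. GCRMA and Partek made them, according to the submitters' processing notes, without stated versions. Filters by the authors are not given in these sources. Of 12830 probe sets, 46 array controls were left out and 12784 were tested without further normalisation or filter, and 0 columns belonged to other samples.

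The platform annotation gave 8994 probe sets 1 symbol, 110 several and 3680 none. Gene IDs of 8926 were found in the RefSeq table of GRCz12tu, which changed 1 symbol. The probe set with the highest mean stood for each of the 982 genes with several.

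limma 3.58.1 in R 4.3.3 fitted 3 group means over all 11 arrays (8 residual degrees of freedom) with a mean-dependent variance trend, 2-sided. p-values were adjusted by Benjamini-Hochberg over the 12784 probe sets, with calls at an adjusted p under 0.05. The functions were tested on simulated data. An exact permutation test over arrays was used for levels relative to hepatocyte markers. The number of arrays limits the precision. Separate clutches or pools are not stated for the samples of a group, so the spread that p-values measure is that between samples and may be technical.

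The genes crp and crp3 and all 16 gene lists were chosen with earlier results of these data known. Named genes were crp, crp3, the measured pentraxins, ahcy, up to 4 called genes per list and comparison by smallest p (the 2 largest differences where none was called), and the 8 genes most correlated with each pentraxin. Sequences were not used here. Alternatives covered the variance prior, normalisation, a filter on dim probe sets, array weights, replicate blocks, the samples in the fit, probe sets per gene and leaving out arrays.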

Additional observations from a re-analysis of the deposited data

Results flagged for a closer look

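Of 120 groups of 4 arrays tested, 6 had 1 array apart from the others by Dixon's criterion. Chance alone gives such a gap in about 1 of 20 groups, which is no fewer than were found. The level of crp relative to the hepatocyte marker mean was lowest in azacytidine 6, at 1.03, against 1.49 to 1.53 in the other azacytidine arrays. The remaining instances concerned other genes. Control 4 had the lowest c3a.1 level of the controls, 6.95 against 8.28 to 8.44, the lowest hnf4b level, 7.93 against 8.72 to 8.88, and the lowest elovl8b level, 9.23 against 9.70 to 9.74. It had the highest nptx1l level, 4.82 against 4.13 to 4.21, and it also held the highest neural and lens marker means. Azacytidine 2 had the lowest c7b level of its group, 6.57 against 8.95 to 9.34.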

How the results depend on the processing

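Neither crp nor crp3 was called after azacytidine under any alternative run, with differences of 0.49 to 0.74 for crp (adjusted p 0.15 to 0.41) and 0.44 to 0.63 for crp3 (adjusted p 0.16 to 0.75) when each array was left out in turn. In mutants the leave-one-out ranges were -6.22 to -5.88 for crp and -5.45 to -4.38 for crp3 against control, and -6.81 to -6.50 and -5.96 to -4.89 against azacytidine. The main fit did not pair same-numbered arrays, whose correlations of deviations were -0.206 to 0.031. So few pairs cannot show whether such arrays shared a clutch or a batch. With the replicate block as a fixed term, which leaves 2 residual degrees of freedom, crp3 after azacytidine was -0.06 (adjusted p = 0.97), crp in mutants was -5.71, no probe set was called after azacytidine (0 higher, 0 lower), and calls in the 7 lists were 0 higher after azacytidine, 0 higher and 1 lower in mutants against control, and 1 higher and 10 lower against azacytidine. The same block turned cebpb to -0.15 after azacytidine and to -0.06 in mutants, and saa in mutants to -0.08. As a random term (correlation 0.029) the block changed no call of crp or crp3. The 51 probe sets called higher after azacytidine became 129 with array weights, 97 with centring, 92 with cyclic loess, 19 without control 2 and control 4, and 28 to 77 without 1 array. The 23 lower became 98 with array weights and 4 to 94 without 1 array. Centring moved all differences by 0.10 after azacytidine and -0.12 in mutants. In the 7 lists, the 8 called higher after azacytidine became 4 without control 2 and control 4, and 4 to 9 without 1 array. The 4 higher in mutants became 9 with array weights, 1 without control 2 and control 4, and 0 to 8 without 1 array, while the 26 lower became 20 to 27. Against azacytidine, the 5 higher became 2 with centring, 3 with cyclic loess or without control 2 and control 4, and 2 to 5 without 1 array, and the 36 lower became 33 to 37. Relative to the list's median in place of its mean, crp3 rose by 0.31 after azacytidine (exact permutation p = 0.029, the smallest that these splits allow), and relative to the mean it was -0.03 without control 8, 0 without azacytidine 5 and at most 0.21, with crp at 0.07 to 0.33. Near-zero mutant differences changed sign for saa (-0.05 with array weights and with centring, -0.10 with cyclic loess and without mutant 3) and for cebpb (-0.06 with centring, -0.05 without control 4 or control 8, and up to 0.19 without control 2). The cause of these changes was not tested.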
